A study of Homo sapiens with 8 samples.

Results

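The stanniocalcins STC1 and STC2 are the 2 human genes of a small family of secreted glycoprotein hormones. They were taken by symbol from an array table of 47323 probes, in which each is measured by 1 probe (ILMN_1758164 for STC1 and ILMN_1691884 for STC2). Both probes were above the background level on all 8 arrays, and both genes are among the 12415 genes tested. The cells are A375-LM3, derived from A375, an established melanoma cell line of human origin, and their RNA was measured on Illumina HumanHT-12 V4 BeadChips, which give 1 intensity per probe. The 4 groups hold 2 arrays each: tumor-dissociated cells expressing JMJD3, tumor-dissociated cells expressing vector, cultured cells expressing JMJD3 and cultured cells expressing vector. JMJD3 is the histone H3K27 demethylase encoded by KDM6B, and the question put by the series is which genes respond to it. The cultured cells had 1 day in medium with serum, whereas the tumor-dissociated cells were isolated from primary tumors that A375-LM3 had formed and then kept for 3 passages. Origin therefore cannot be told apart from dissociation and from time in culture. The labels do not say whether the 2 arrays of a group came from separate cultures or tumors, which promoter drives JMJD3, or what host carried the tumors. The limma p-values therefore set group differences only against the spread of these arrays within groups, and that spread may be technical.

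Stanniocalcin was first known as a calcium-lowering hormone of bony fishes. In mammals both proteins are secreted by many tissues and act locally, and both bind and inhibit PAPP-A, a metalloproteinase that cleaves IGF-binding proteins and so frees insulin-like growth factors. STC1 is often raised in tumors and by hypoxia, and STC2 is a known target of the stress-response factor ATF4 and of hypoxia.

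Between 19913 and 19923 probes per array exceeded an intensity of 161.4, the background level. KDM6B itself was measured by 1 probe, at 162 and 160 in tumor-dissociated JMJD3 cells against 148 and 141 in tumor-dissociated vector cells, and at 156 and 150 in cultured JMJD3 cells against 150 and 145 in cultured vector cells. It exceeded the background level on 1 of 8 arrays, and whether the introduced sequence contains its target is not given in the sources used, so it does not check the labels. On the second principal component, with 19.6% of the variance, tumor-dissociated JMJD3 replicate 1 (-31.8) and tumor-dissociated vector replicate 2 (32.1) stood apart from the other arrays (-7.90 to 10.2). Of 9 melanocytic markers with a probe, 4 or 5 were above background on each array, among them the lineage factors SOX10 and MITF, while MLANA, TYR and S100B were above it on none. SOX10 had an intensity of 231 on tumor-dissociated vector replicate 2 and of 1560 on replicate 1 of that group.

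STC1, the human counterpart of the fish hormone, had an intensity of 3437 and 1629 in tumor-dissociated JMJD3 cells, 836 and 884 in tumor-dissociated vector cells, 1218 and 1638 in cultured JMJD3 cells, and 268 and 235 in cultured vector cells. All 4 JMJD3 arrays lay above all 4 vector arrays, a separation that 1.76% of the tested genes showed. Ordered by mean intensity, the groups ran from tumor-dissociated JMJD3 cells (2533 ± 1278, SD, n = 2) through cultured JMJD3 cells (1428 ± 297, n = 2) and tumor-dissociated vector cells (860 ± 34.1, n = 2) to cultured vector cells (251 ± 23.1, n = 2). The first and second of these groups overlapped, because tumor-dissociated JMJD3 replicate 2 lay between both cultured JMJD3 arrays. The other neighbours in this order did not overlap.

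**Figure D1:**
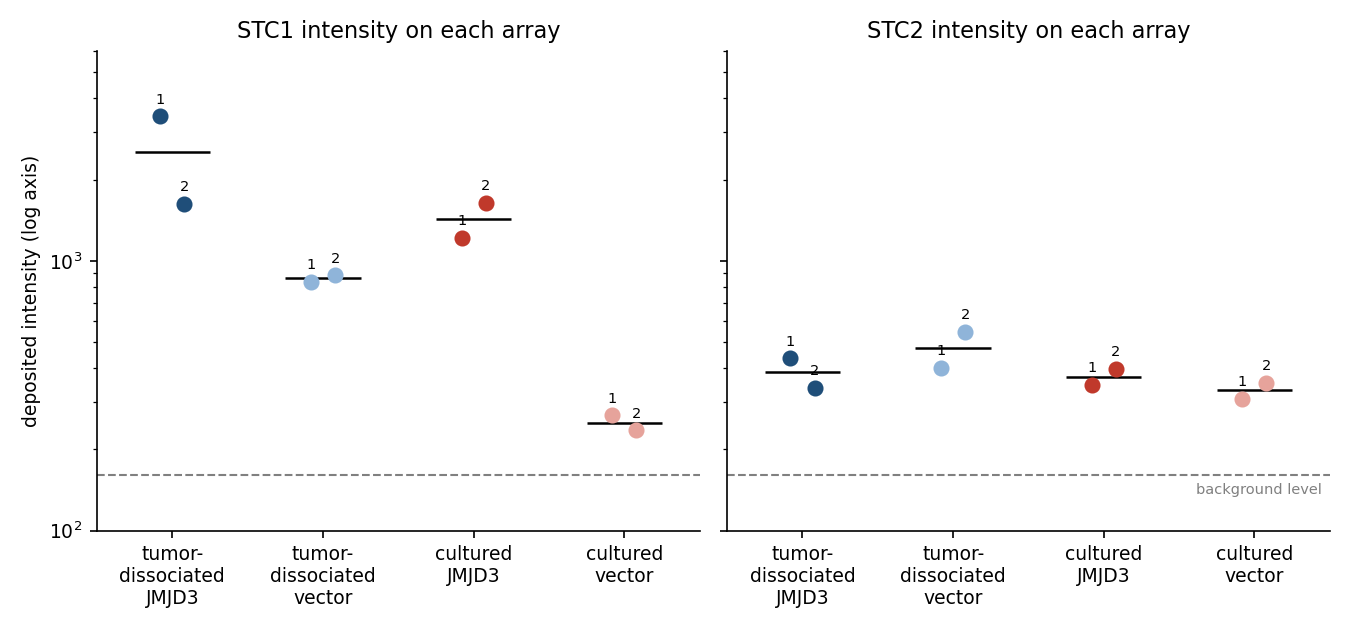
Deposited intensity (log axis) of STC1 (left) and STC2 (right) on each of the 8 arrays, by group, with the replicate number beside each point, a line at each group's mean and a dashed line at the background level of 161.4. STC1 was higher on every JMJD3 array (1218 to 3437) than on any vector array (235 to 884), whereas all STC2 values lay between 308 and 545.

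STC2, which shares the PAPP-A-inhibiting activity, covered a narrower range. Its intensity was 436 and 338 in tumor-dissociated JMJD3 cells, 401 and 545 in tumor-dissociated vector cells, 347 and 398 in cultured JMJD3 cells, and 308 and 354 in cultured vector cells. Group means ran from tumor-dissociated vector cells (473 ± 102, SD, n = 2) through tumor-dissociated JMJD3 cells (387 ± 69.2, n = 2) and cultured JMJD3 cells (372 ± 35.9, n = 2) to cultured vector cells (331 ± 32.7, n = 2), and every pair of neighbours in this order overlapped. The highest value, 545, came from tumor-dissociated vector replicate 2, the array that stood apart on the second component.

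No STC1 promoter was among the promoter sequences used, so only that of STC2 is shown. Known inputs of STC2 include hypoxia and ATF4. The 250 bases before its annotated start, from the RefSeq promoter table of build GRCh38.p14 at chr5:173328415-173328664 on the minus strand, read 5′ to 3′ with matches to the searched motifs in capitals:
STC2: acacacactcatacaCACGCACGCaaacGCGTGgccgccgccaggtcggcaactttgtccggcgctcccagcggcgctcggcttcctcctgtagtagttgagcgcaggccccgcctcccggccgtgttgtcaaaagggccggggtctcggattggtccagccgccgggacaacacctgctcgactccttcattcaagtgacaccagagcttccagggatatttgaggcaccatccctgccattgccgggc

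Both strands were searched for 5 motifs. The hypoxia response core in the form GCGTG matched 3 times, once on the printed strand and otherwise on the opposite strand, where 2 matches overlap by a base in CACGCACGC; 32.2% of 35116 promoters of the same length hold it. Its other form ACGTG (18.5% of promoters), the ATF4 motif TGATGNAA (3.14%), the NF-kB consensus (9.96%) and the GC-rich SMAD motif GGCGCC (16.4%) had 0 matches in this window. The window holds 22 CpG dinucleotides, more than in 72% of the promoters, where the median is 11. A match describes these letters and is not a measured binding site.

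In cultured cells STC1 rose with JMJD3. From here on, log2 differences and fold changes are of background-corrected values unless stated otherwise. The printed intensities are uncorrected, so these differences can exceed the ratios of the intensities, above all in dim genes. The log2 difference was 3.14 ± 0.33 (SE, 2 arrays per group), a fold change of 8.84 with a 95% interval of 5.29 to 14.8, and limma's adjusted p over all genes was 0.0114. The JMJD3 arrays lay above the vector arrays without overlap, as for 17.8% of the tested genes. STC1 was 1 of 11 genes called in this comparison, 0.0886% of those tested, and stood at rank 4 of 12415 by the size of its increase. The cultured vector values were 1.66 and 1.46 times the background level. Without the background correction the log2 difference was 2.49 and the adjusted p was 0.0730, which is not a call.

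Each of the 4 cultured arrays was also needed for the call. Without cultured JMJD3 replicate 1 and replicate 2 in turn the difference was 3.37 (limma adjusted p = 0.0757) and 2.91 (0.160), and without cultured vector replicate 1 and replicate 2 it was 3.30 (0.0862) and 2.98 (0.153). The standard error is pooled over all 4 groups, and STC1 varied most in tumor-dissociated JMJD3 cells, with an SD of 0.80 on the log2 scale, against 0.065 in tumor-dissociated vector cells, 0.33 in cultured JMJD3 cells and 0.23 in cultured vector cells. A fit of the cultured arrays alone gave STC1 the same difference with an adjusted p of 0.000826.

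STC2 did not pass in cultured cells. Its log2 difference with JMJD3 was 0.24 ± 0.25 (limma adjusted p = 1), and the 95% interval ran from -0.31 to 0.80. Both groups overlapped, since cultured vector replicate 2 (354) lay above cultured JMJD3 replicate 1 (347).

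In tumor-dissociated cells the STC1 arrays of JMJD3 cells again lay above those of vector cells without overlap, as for 19.0% of the tested genes, but the difference did not pass. It was 1.58 ± 0.33 on the log2 scale with JMJD3, a fold change of 2.98 with a 95% interval of 1.78 to 4.98 (limma adjusted p = 0.0744), where 102 genes, 0.822% of those tested, were called. Which of the JMJD3 arrays was kept decided the call: without replicate 2 the difference was 2.14 (adjusted p = 0.00228), and without replicate 1, the array that stood apart, it was 1.01 (adjusted p = 0.183). STC2 had a negative log2 difference, -0.38 ± 0.25 (limma adjusted p = 0.577), with a 95% interval of -0.93 to 0.18, and its arrays overlapped between the groups.

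Averaged over both origins, STC1 rose with JMJD3 (log2 difference 2.36 ± 0.23, limma adjusted p = 0.00433), a fold change of 5.13 with a 95% interval of 3.57 to 7.37. In this comparison 59 genes, 0.475%, were called. The call held in all 8 fits that left out 1 array, with differences between 2.08 and 2.64. An exact two-sided permutation test of the 8 STC1 values within origins gave p = 0.0556, the smallest that its 36 arrangements can give. For STC2 the averaged log2 difference was -0.07 ± 0.17 (limma adjusted p = 0.944), with a 95% interval for the fold change of 0.728 to 1.25, and the permutation test gave p = 0.833. Whether the change of STC1 differs from that of STC2 was not tested.

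**Figure D2:**
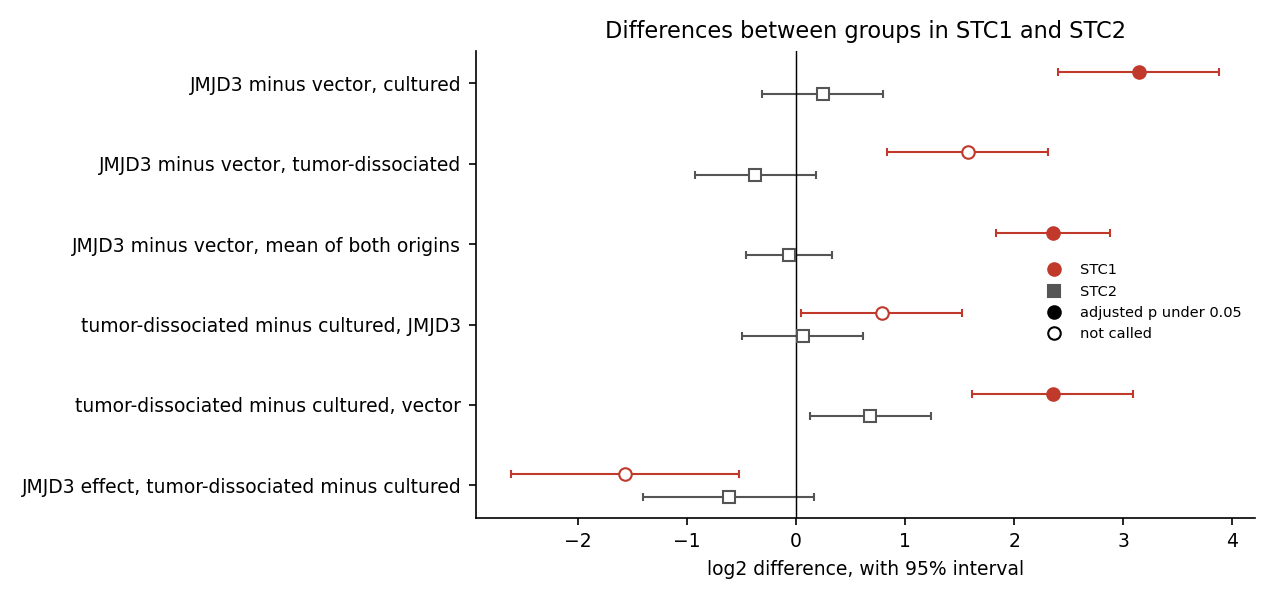
Log2 differences of STC1 (circles) and STC2 (squares) in the 6 comparisons, with 95% intervals from limma; filled symbols passed an adjusted p of 0.05. STC1 passed in cultured cells (3.14), averaged over both origins (2.36) and between origins in vector cells (2.35), and STC2 passed in none of the 6.

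STC1 also differed between origins in vector cells. Its intensity was 836 and 884 in tumor-dissociated cells against 268 and 235 in cultured cells. After the background correction it rose 5.11-fold with a 95% interval of 3.06 to 8.53 (log2 difference 2.35 ± 0.33, limma adjusted p = 0.00282). Without that correction the log2 difference was 1.78 (limma adjusted p = 0.0130). The groups did not overlap, as for 26.7% of the tested genes in this direction. Here 10.1% of the tested genes were called, and STC1 stood at rank 105 among the increases. The call held in all 8 fits without 1 array, with differences between 2.19 and 2.51. In bulk RNA, a change in the share of cells of a type and a change in RNA per cell cannot be told apart. In JMJD3 cells the difference between origins was 0.79 ± 0.33 (limma adjusted p = 0.178), in a comparison where 5.96% of the genes were called. It was 1.35 (adjusted p = 0.0130) without tumor-dissociated JMJD3 replicate 2 and 0.22 (adjusted p = 0.693) without replicate 1. For origin within constructs the exact permutation test of STC1 gave p = 0.111.

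The JMJD3 difference of STC1 in tumor-dissociated cells minus that in cultured cells was -1.57 ± 0.46 on the log2 scale, but this did not pass (limma adjusted p = 0.450, unadjusted p = 0.00793), where 0.105% of the genes were called. STC2 had a difference between origins of 0.68 ± 0.25 in vector cells (limma adjusted p = 0.117, 95% interval 0.13 to 1.23) and of 0.06 ± 0.25 in JMJD3 cells (adjusted p = 0.904, 95% interval -0.49 to 0.61). The difference of its JMJD3 effect between origins was -0.62 ± 0.35 (adjusted p = 0.805).

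**Figure D3:**
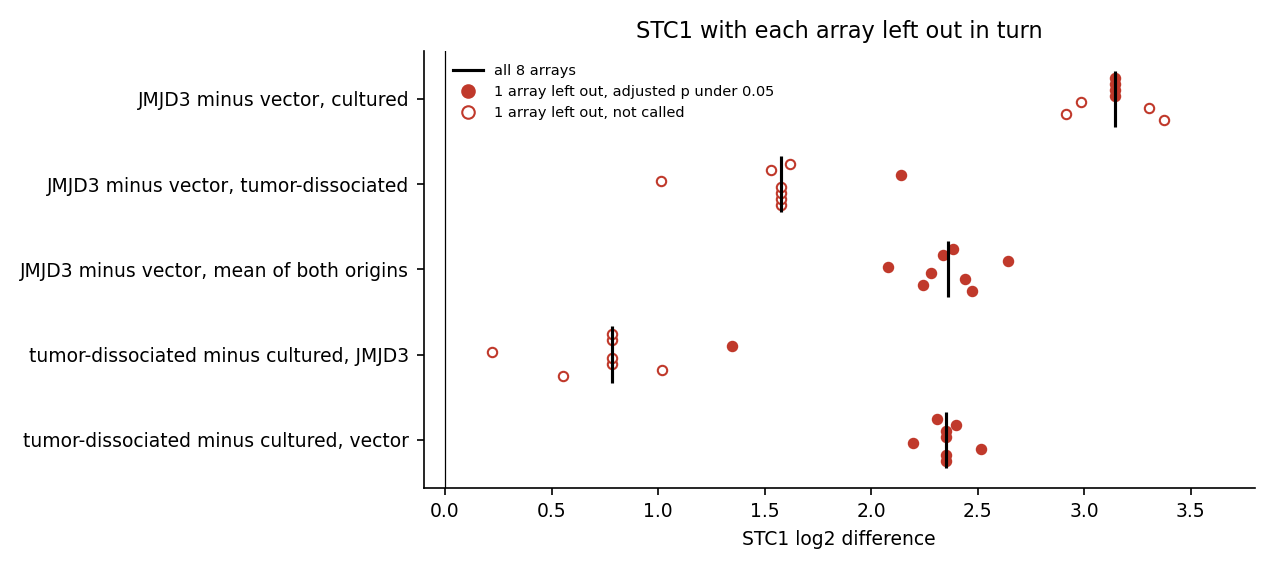
STC1 log2 differences in 5 comparisons with all 8 arrays (vertical bars) and with each array left out in turn (points); filled points passed an adjusted p of 0.05. The averaged JMJD3 difference (2.08 to 2.64) and the origin difference in vector cells (2.19 to 2.51) passed in every fit, and the tumor-dissociated JMJD3 difference ran from 1.01 to 2.14.

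Several fibroblast-type genes differed between origins. Of 9 fibroblast markers, the summed intensity was 6278 and 3715 in tumor-dissociated JMJD3 cells and 3550 and 3933 in tumor-dissociated vector cells, against 1772 to 2109 on the 4 cultured arrays. Between 7 and 8 of them were above background on tumor-dissociated arrays and 5 or 6 on cultured arrays. Of 8 tested, 4 rose in JMJD3 cells and 5 in vector cells, beside 5.96% and 10.1% of all tested genes called in either direction. COL1A2, a type I collagen chain, had an intensity of 402 and 469 in tumor-dissociated vector cells against 162 and 170 in cultured vector cells (log2 difference 2.38 ± 0.25, limma adjusted p = 0.000675). The others called were COL1A1, PDGFRB and ACTA2 in both constructs and PDGFRA in vector cells. DCN, LUM and FAP were called in neither construct. DCN had 161 and 213 in tumor-dissociated JMJD3 cells against 186 and 179 in cultured JMJD3 cells. In vector cells it had 262 and 197 against 194 and 179. On the cultured arrays COL1A1, COL1A2 and PDGFRA were close to background, at 147 to 184. The sum of 6278, on tumor-dissociated JMJD3 replicate 1, included 2403 from ACTA2 and 2000 from PDGFRB. The calls of COL1A1 and ACTA2 in JMJD3 cells were lost without either cultured JMJD3 array, that of COL1A2 in JMJD3 cells without cultured JMJD3 replicate 1 and that of PDGFRB there without cultured JMJD3 replicate 2. In vector cells PDGFRB lost its call without any 1 of the 4 vector arrays and without the background correction (adjusted p = 0.0667), and ACTA2 without cultured vector replicate 2 or tumor-dissociated vector replicate 1. THY1 was above background on no array. Leukocyte markers summed to between 2541 and 3319 in tumor-dissociated cells and to between 2771 and 2932 in cultured cells, and their defining members PTPRC and CD3E were above background on no array. CD68 alone made up 1289 to 1688 of these sums. CSF1R, also on this list, had 558 on tumor-dissociated JMJD3 replicate 1, the array where STC1 was highest, and 183 on replicate 2. On the other arrays CSF1R had 140 to 178, and it was not called. Of 8 endothelial markers, 6 were above background on no array, CDH5 and VWF among them, and the 1 tested was PECAM1. It had 180 and 175 in tumor-dissociated JMJD3 cells, close to background, against 144 and 145, not above background, in cultured JMJD3 cells, and its call was lost in 3 of 8 fits without 1 array (either cultured JMJD3 array or tumor-dissociated JMJD3 replicate 1) and without the background correction (adjusted p = 0.0894). Keratinocyte and erythroid markers summed to between 804 and 867 in tumor-dissociated cells and to between 913 and 945 in cultured cells, and KRT5, KRT1 and HBB were above background on no array. Of the leukocyte and keratinocyte markers LYZ, the lysozyme gene, fell in tumor-dissociated cells in both constructs and KRT14, a basal keratin, in vector cells. The LYZ call in JMJD3 cells was kept only without tumor-dissociated JMJD3 replicate 2 or either tumor-dissociated vector array. The part of the fibroblast-type genes in the STC1 difference between origins was not tested.

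The genes on which stanniocalcins act showed 1 large mover. PAPPA encodes PAPP-A, the protease that both proteins inhibit, and had an intensity of 1430 and 884 in tumor-dissociated JMJD3 cells, 610 and 397 in tumor-dissociated vector cells, 413 and 266 in cultured JMJD3 cells, and 185 and 166 in cultured vector cells. The JMJD3 arrays were above the vector arrays in both origins, as they were for STC1 and for 4.76% of the tested genes. PAPPA rose in tumor-dissociated cells, with a log2 difference of 2.17 ± 0.38 in JMJD3 cells (limma adjusted p = 0.0162) and of 2.42 ± 0.38 in vector cells (adjusted p = 0.00473). The call in vector cells held in all 8 fits without 1 array, and the call in JMJD3 cells was lost without cultured JMJD3 replicate 2 or tumor-dissociated JMJD3 replicate 1. With JMJD3 the PAPPA difference was 1.64 ± 0.38 in cultured cells (adjusted p = 0.360), 1.40 ± 0.38 in tumor-dissociated cells (adjusted p = 0.147) and 1.52 ± 0.27 averaged over both (adjusted p = 0.0522), and it did not pass in any of these.

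Of all tested genes, 0.0886% were called with JMJD3 in cultured and 0.822% in tumor-dissociated cells. Of 13 genes of the PAPP-A and IGF axis, 9 were tested and 0 were called with JMJD3 in either origin. By limma 3 had an unadjusted p under 0.05 in cultured cells, where 4.34% of all tested genes had one, and 2 in tumor-dissociated cells, where 13.7% had one. Their median log2 difference with JMJD3 was 0.15 in cultured cells, beside -0.0093 over all tested genes, and 0.33 in tumor-dissociated cells, beside -0.0011 over all. IGFBP5, a binding protein that PAPP-A cleaves, had 8322 and 6859 in tumor-dissociated JMJD3 cells and 3657 and 3372 in tumor-dissociated vector cells, against 5908 and 2269 in cultured JMJD3 cells and 2228 and 1397 in cultured vector cells. Its averaged JMJD3 difference was 1.11 ± 0.29 (limma adjusted p = 0.173). IGFBP4, the classical PAPP-A substrate, had an averaged JMJD3 difference of 0.20 ± 0.21 (adjusted p = 0.812). The receptor gene IGF1R stayed close to background, between 160 and 208 on all 8 arrays. Between origins, PAPPA rose in both constructs, and IRS2, an adaptor of insulin and IGF receptors, fell by 1.06 ± 0.29 in vector cells (adjusted p = 0.0487), a call kept only without tumor-dissociated vector replicate 1 or either tumor-dissociated JMJD3 array and lost without the background correction (adjusted p = 0.0508).

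**Figure D4:**
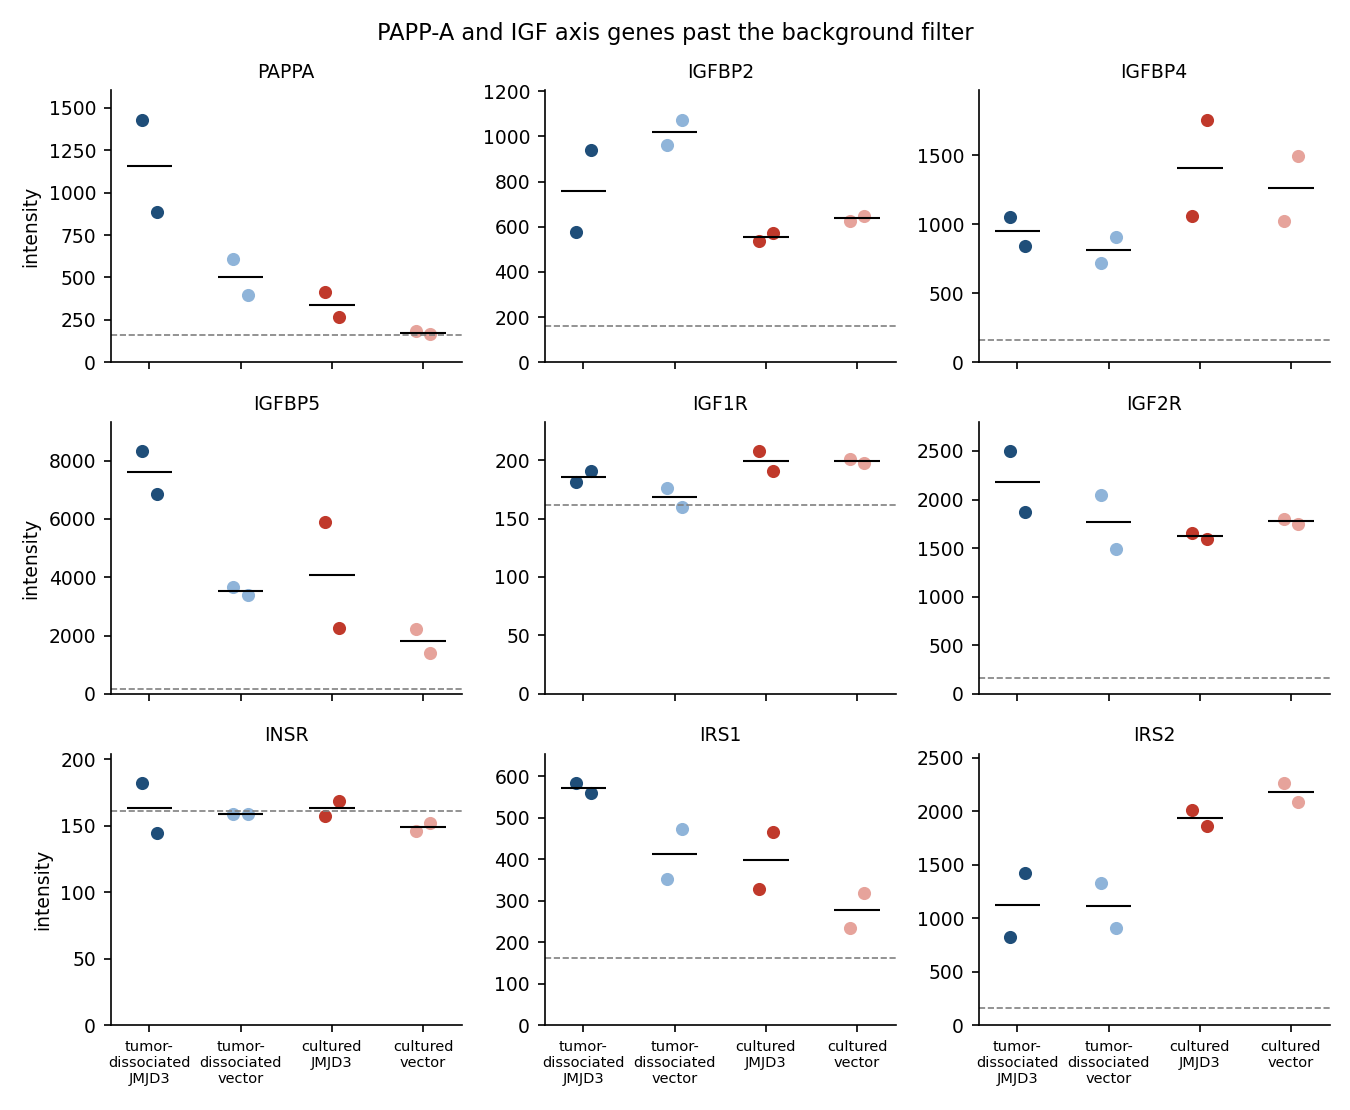
Deposited intensity (linear axes from 0) of the 9 tested genes of the PAPP-A and IGF axis on each array by group, with a line at each group's mean and a dashed line at the background level. PAPPA ran from 166 in cultured vector cells to 1430 in tumor-dissociated JMJD3 cells, while IGF1R and INSR stayed near the background level.

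Calcium and phosphate handling is the field in which stanniocalcins were discovered. Of 25 genes on the list 15 were tested. With JMJD3 0 were called in either origin, beside 0.0886% (cultured) and 0.822% (tumor-dissociated) of all tested genes. By limma 0 of the 15 in cultured cells and 4 in tumor-dissociated cells had an unadjusted p under 0.05. Over all tested genes these shares were the same 4.34% and 13.7%. The median log2 difference with JMJD3 was 0.024 in cultured and 0.26 in tumor-dissociated cells. The largest in cultured cells was ORAI3, a store-operated calcium channel subunit, at 163 and 158 with JMJD3 against 154 and 142, not above background, with vector (adjusted p = 1). VDR, the vitamin D receptor, had a difference of 0.91 ± 0.23 in tumor-dissociated cells (adjusted p = 0.128), with 262 and 201 in JMJD3 cells against 161 and 179 in vector cells. Between origins VDR fell in vector cells by 1.03 ± 0.23 (adjusted p = 0.0257), a call lost when any 1 of the 4 vector arrays was left out, and at an adjusted p of 0.0587 without the background correction.

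Hypoxia and ATF4 are known inputs to the stanniocalcin genes. Whether either had a part in the STC1 or STC2 values was not tested. Of 22 tested hypoxia genes, 0 were called with JMJD3 in cultured cells (0.0886% over all tested genes), and their median log2 difference was -0.0075. In cultured cells 1 of the 22 had an unadjusted p under 0.05 by limma, beside 4.34% of all tested genes. In tumor-dissociated cells 6 of the 22 had an unadjusted p under 0.05 by limma, beside 13.7% of all tested genes, and the list's median was 0.26. Of the 22, 1 rose there, P4HA2, a collagen prolyl hydroxylase, by 1.18 ± 0.21 (adjusted p = 0.0380), where 0.822% of all tested genes were called. P4HA2 had 2172 and 1658 in JMJD3 cells against 963 and 830 in vector cells. With 1 array left out the P4HA2 call was kept only without tumor-dissociated JMJD3 replicate 2. EPAS1, which encodes the oxygen-regulated factor HIF-2 alpha, had 1150 and 469 in tumor-dissociated JMJD3 cells against 274 and 217 in tumor-dissociated vector cells (log2 difference 2.15 ± 0.43, adjusted p = 0.0693). In cultured cells EPAS1 had 205 and 179 with JMJD3 against 153 and 141, not above background, with vector (adjusted p = 1). Between origins in vector cells 2 of the 22 rose and 4 fell, with a median of -0.063, where 10.1% of all tested genes were called. Those that fell were ANGPTL4, NDRG1, the glucose transporter SLC2A1 and the hexokinase HK2, and those that rose were EPAS1 and the carbonic anhydrase CA12. CA12, at 395 and 344 in tumor-dissociated vector cells, was not above background in cultured vector cells (147 and 142). With 1 array left out CA12 kept its call in all 8 fits and EPAS1 kept it only without either tumor-dissociated JMJD3 array. EPAS1 also lost this call without the background correction (adjusted p = 0.241). Each of the 4 that fell lost its call without cultured vector replicate 1 and without tumor-dissociated vector replicate 2. In JMJD3 cells, where 5.96% of all tested genes were called, CA12, EPAS1 and P4HA2 rose between origins and 0 of the 22 fell. Of these calls, that of CA12 held in all 8 fits without 1 array, that of EPAS1 was lost without either cultured JMJD3 array, and that of P4HA2 was kept in 3 of the 8.

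Of 23 tested ATF4 and unfolded protein response genes, 0 were called with JMJD3 in either origin (all tested genes: 0.0886% cultured, 0.822% tumor-dissociated). In each origin 2 had an unadjusted p under 0.05 by limma, beside 4.34% of all tested genes in cultured and 13.7% in tumor-dissociated cells. The list's median log2 difference was -0.20 in cultured and -0.028 in tumor-dissociated cells. The largest in both was ASNS, asparagine synthetase and an ATF4 target, at -0.70 ± 0.31 in cultured cells (adjusted p = 1) and -0.73 ± 0.31 in tumor-dissociated cells (adjusted p = 0.341). Between origins in vector cells 4 of the 23 fell and 0 rose, where 10.1% of all tested genes were called (5.96% in JMJD3 cells). The falls were led by the cystine transporter SLC7A11 (log2 difference -1.44 ± 0.22, adjusted p = 0.00478, called in all 8 fits without 1 array). The other 3 were ATF3, SLC7A5 and SLC3A2, and ATF3 and SLC7A5 also fell between origins in JMJD3 cells, both kept in 3 of 8 fits without 1 array. In vector cells SLC7A5 kept its call in 7 of the 8, and ATF3 and SLC3A2 in 5. STC2 had a positive difference between origins in vector cells that did not pass, and the part of ATF4 in it was not tested.

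With JMJD3, 0.0886% of all tested genes were called in cultured cells and 0.822% in tumor-dissociated cells. Among 14 tested NF-kB response genes, CXCL8, which encodes the inflammatory chemokine interleukin 8, was the 1 called with JMJD3 in cultured cells. It had 2577 and 2558 in cultured JMJD3 cells against 561 and 475 in cultured vector cells, and its call was lost without either cultured JMJD3 array or cultured vector replicate 2. In tumor-dissociated cells PTGS2, the inducible cyclooxygenase, was the 1 called, with 689 and 651 in JMJD3 cells against 249 and 199.9 in vector cells, a call lost without tumor-dissociated JMJD3 replicate 1 or tumor-dissociated vector replicate 2, and without the background correction (adjusted p = 0.0501). CXCL8 overlapped between the tumor-dissociated groups, at 2786 and 4058 with JMJD3 against 2802 and 3260 with vector. Its JMJD3 effect, tumor-dissociated minus cultured, was called at a log2 difference of -2.42, where 0.105% of all tested genes were called. This difference ran from -2.70 to -2.14 over the fits without 1 array. Its call was lost without any 1 of the cultured arrays or without tumor-dissociated vector replicate 2, and was kept in 3 of the 8 fits. Averaged over both origins, where 0.475% of all tested genes were called, 3 rose, PTGS2 (limma adjusted p = 0.0112, with log2 differences of 1.70 to 2.30 over the fits without 1 array), CXCL8 (1.37 ± 0.15, adjusted p = 0.00544) and the monocyte chemokine CCL2 (2.32 ± 0.40, adjusted p = 0.0471), beside 2.36 for STC1. Of these calls, that of CXCL8 held in all 8 fits without 1 array, that of PTGS2 was lost without cultured vector replicate 2 or tumor-dissociated vector replicate 2, and that of CCL2 was kept only without either of the tumor-dissociated JMJD3 arrays. The CCL2 call was also lost without the background correction (adjusted p = 0.132). CCL2 and STC1 were each highest on tumor-dissociated JMJD3 replicate 1, where CCL2 had 7370, with 1581 on replicate 2. Between origins in vector cells, where 10.1% of all tested genes were called, 4 of the 14 rose, CXCL8, CXCL1, TNFAIP3 and TNFAIP2, and 2 fell, NFKB1 and CCL20. With 1 array left out CXCL1 kept its call in 5 of 8 fits and NFKB1 in 4, and the other 4 genes kept theirs in all 8. TNFAIP3, the ubiquitin-editing feedback inhibitor A20, had 558 and 556 in tumor-dissociated vector cells against 187 and 197 in cultured vector cells. In JMJD3 cells, where 5.96% of all tested genes were called, TNFAIP3 rose between origins, a call lost without cultured JMJD3 replicate 2. TNFAIP2 and IL6 were called there too, but TNFAIP2 lost its call without either cultured JMJD3 array or tumor-dissociated JMJD3 replicate 1 and without the background correction (adjusted p = 0.0520). The IL6 call was kept only without tumor-dissociated JMJD3 replicate 2 and was lost without the background correction (adjusted p = 0.0833).

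Of 14 tested BMP response genes, 2 had an unadjusted p under 0.05 by limma with JMJD3 in cultured cells and 8 in tumor-dissociated cells. Over all tested genes these shares were 4.34% and 13.7%. In cultured cells 0 of the 14 were called, beside 0.0886% of all tested genes. With JMJD3 1 rose in tumor-dissociated cells and on average, the ligand gene BMP2, where 0.822% and 0.475% of all tested genes were called. BMP2 had 586 and 442 in tumor-dissociated JMJD3 cells against 258 and 195 in tumor-dissociated vector cells, and 401 and 433 in cultured JMJD3 cells against 188 and 207 in cultured vector cells. Its averaged difference was 1.74 ± 0.19 (limma adjusted p = 0.00515), which held in all 8 fits without 1 array, while the call in tumor-dissociated cells was lost without either cultured JMJD3 array, tumor-dissociated JMJD3 replicate 1 or tumor-dissociated vector replicate 2. Between origins in vector cells, where 10.1% of all tested genes were called, ATOH8 and MSX1 rose and BAMBI, a decoy receptor that dampens BMP signals, fell. ATOH8 lost its call without cultured vector replicate 2, MSX1 kept it in all 8 fits without 1 array, and BAMBI kept it only without tumor-dissociated vector replicate 1 or either tumor-dissociated JMJD3 array. The list's median log2 difference was 0.11 in cultured and 0.39 in tumor-dissociated cells. Of 5 tested H3K27 enzymes, 0 were called in any of the 6 comparisons, in which 0.0886% to 10.1% of all tested genes were called. At most 1 of the 5 had an unadjusted p under 0.05 in limma. Their largest differences with JMJD3 were in EZH1 in cultured cells, where it had 148 and 159, not above background, with JMJD3 against 176 and 169 with vector (adjusted p = 1), and in EZH2 in tumor-dissociated cells (-0.34 ± 0.25, adjusted p = 0.637), and both encode H3K27 methyltransferases.

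**Figure D5:**
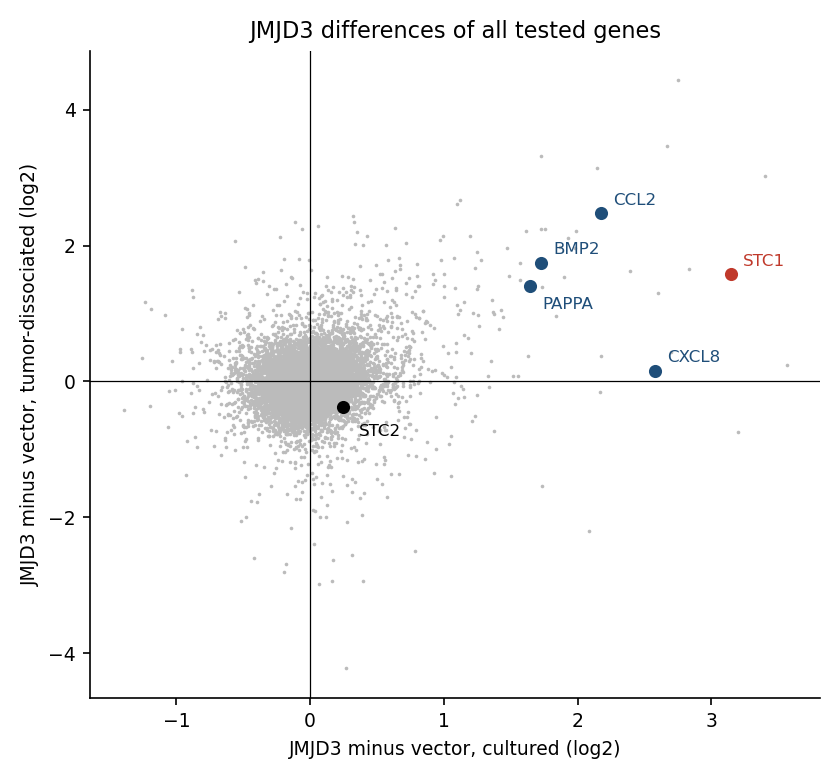
JMJD3 minus vector log2 differences of the 12415 tested genes in cultured (x axis) and tumor-dissociated cells (y axis). STC1 lies at 3.14 and 1.58, CXCL8 at 2.58 and 0.16, and STC2 at 0.24 and -0.38.

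The genes whose pattern over the 8 arrays was most like that of STC1 were sought by Pearson correlation of the log2 values, given as a description because the arrays share their 4 groups. The top 5 of 12414 were the monoamine oxidase MAOB (r = 0.969), the ferrireductase STEAP3 (0.963), FCGR3B (0.962), the protein kinase inhibitor PKIB (0.960) and the growth cone protein GAP43 (0.956). STEAP3 had 383 and 355 in tumor-dissociated JMJD3 cells and 273 and 253 in tumor-dissociated vector cells, against 297 and 315 in cultured JMJD3 cells and 217 and 216 in cultured vector cells. PKIB had 767 and 333 in tumor-dissociated JMJD3 cells and 243 and 260 in tumor-dissociated vector cells, against 246 and 297 in cultured JMJD3 cells and, not above background, 151 and 154 in cultured vector cells. Like STC1, all 5 genes were highest on tumor-dissociated JMJD3 replicate 1, an array that stood apart. Their choice by correlation over the same arrays favours such a shared peak. FCGR3B is nearly identical to FCGR3A, so its probe may not tell them apart, and MAOB was above background on 3 of 8 arrays. STC1 and STC2 correlated with each other at r = 0.43 (Spearman's rho 0.29, n = 8 arrays), which placed STC2 at rank 2931 among the genes compared with STC1.

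The genes most like STC2 were DNAJC13, an endosomal co-chaperone (r = 0.985), DMKN (0.968, above background on 2 of 8 arrays), the mitochondrial ribosomal protein gene MRPL33 (0.949), BEND6 (0.942) and the phosphatase methylesterase PPME1 (0.941). DNAJC13 had 560 and 490 in tumor-dissociated JMJD3 cells and 532 and 609 in tumor-dissociated vector cells, against 497 and 511 in cultured JMJD3 cells and 472 and 499 in cultured vector cells. All 5 were highest on tumor-dissociated vector replicate 2, as STC2 was. They were chosen by correlation over these same arrays, which favours a shared peak, and this array stood apart on the second component.

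STC1 lies on chromosome 8 near the neurofilament genes. In cultured cells the 3 nearest on each side, R3HCC1, ENTPD4, SLC25A37, NEFM, NEFL and DOCK5, had log2 differences with JMJD3 between -0.32 and 0.66, and 0 of 6 were called by limma. The called share over all tested genes was 0.0886% there. The neurofilament gene NEFL fell with JMJD3 in tumor-dissociated cells (-1.37 ± 0.24, adjusted p = 0.0424), where STC1 had a positive difference. This call was kept only without tumor-dissociated JMJD3 replicate 2 and was lost without the background correction (adjusted p = 0.0501). Between origins, where STC1 rose in vector cells, NEFL rose too, with a log2 difference of 3.75 ± 0.24 in vector cells (adjusted p = 4.44e-05, called in all 8 fits without 1 array) and of 1.72 ± 0.24 in JMJD3 cells (adjusted p = 0.00898, lost without cultured JMJD3 replicate 2). NEFM, above background on 2 of 8 arrays, was called in vector cells (adjusted p = 0.0270), a call lost without any 1 of the 4 vector arrays and without the background correction (adjusted p = 0.109). Around STC2 on chromosome 5, CREBRF, BNIP1, NKX2-5, BOD1, CPEB4 and C5orf47 had differences with JMJD3 between -0.22 and 0.16 in cultured cells and between -0.22 and 0.26 in tumor-dissociated cells, with 0 of 6 called in either. Over all tested genes the called shares were 0.0886% in cultured and 0.822% in tumor-dissociated cells.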

How the data were processed

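The deposited intensity values, 1 linear table of 47323 probes on 8 arrays, were made by the authors in GenomeStudio (framework 2011.1, Gene Expression module 1.9.0, per the series' design text). How the authors normalized them is not stated in the labels; sorted, the columns lie within 0.0057 log2 units of each other, like quantile-normalized data, and with a lowest value of 110.7 no background had been subtracted. A second table, with 16 columns whose names match no sample label, was not used.

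The background level, 161.4, is the one-sided 0.01 point of a distribution around the mode of all values (139.7, SD 0.0892 on the log2 scale). Values were corrected with normexp (offset 16) and log2-transformed. Of the probes, 30113 had 1 gene symbol, 8 several and 17202 none; 22287 exceeded the background level on at least 2 arrays and named 12415 genes, each represented by its brightest probe. Differences were tested with limma 3.58.1 (lmFit, eBayes; R 4.3.3), using 4 group means over 8 arrays (4 residual and 5.11 prior degrees of freedom) and Benjamini-Hochberg adjustment over all genes in each comparison; genes under 0.05 were called. Single genes were also tested by exact permutation within strata; 2 arrays against 2 alone cannot give a p below 0.333. The number of arrays limits the precision.

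STC1 and STC2 and the 12 gene lists were chosen with earlier results of these data known, and no list was tested as a set. Named list genes are those called, or otherwise the largest difference with JMJD3 in each origin, beside the 5 most correlated genes and 3 neighbours on each side of STC1 and STC2; IGFBP4, IGFBP5, IGF1R, INSR and SOX10 were added after their values were seen. The fit was tested on simulated data. Alternatives covered background correction, offset, filter, probe choice, repeated quantile normalization, groups fitted, replicate block, spread estimate, array weights and each array left out.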

Additional observations from a re-analysis of the deposited data

How the results depend on the processing

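The averaged JMJD3 difference of STC1 and its origin difference in vector cells kept their direction and their calls under every alternative run, left-out arrays included, at 1.98 to 2.64 and 1.78 to 2.51 on the log2 scale. A fit of only the groups compared gives no value for the averaged difference or the difference of effects. In cultured cells the STC1 call was lost without the background correction (2.49, adjusted p = 0.0730) and ran from 2.91 to 3.37 with 1 array left out; the lone array of a group is then assumed to vary like the other groups. With 1 array left out, STC1 ran from 1.01 to 2.14 with JMJD3 in tumor-dissociated cells and from 0.22 to 1.35 between origins in JMJD3 cells. STC2 was called under no alternative; its values near 0 changed sign, from -0.21 to 0.075 for the averaged JMJD3 difference and from -0.19 to 0.31 between origins in JMJD3 cells with 1 array left out, and -0.19 without both arrays that stood apart. The cause of these shifts was not tested.

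Genes called over the whole table, left-out arrays included, numbered 0 to 44 (11 in the reported fit) with JMJD3 in cultured cells, 15 to 426 (102) in tumor-dissociated cells, 22 to 349 (59) averaged, 39 to 1307 (740) between origins in JMJD3 cells, 348 to 1693 (1258) in vector cells and 0 to 69 (13) for the difference of effects. The 1693 in vector cells is a count of probes, because in that fit every probe was tested on its own. Replicate numbers are shared across groups, but same-numbered arrays deviated together with correlations of 0.0463 to 0.371, not all over 0.1, so they are not treated as pairs. With the replicate number as a block STC1 in cultured cells stayed at 3.14 (adjusted p = 0.0188) and no STC1 or STC2 call changed; the block called 168, 1161 and 35 genes in tumor-dissociated cells, between origins in JMJD3 cells and for the difference of effects. STC2, at most 3.38 times the background level, is measured close to background, which limits small differences.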
